A study of Mus musculus with 16 samples.

Results

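The cytosolic ribosomal protein genes were followed across 16 RNA libraries of RAW264.7 cells, a macrophage-like cell line of the mouse. Ribosomal protein genes were taken as the protein-coding records with symbols that begin with Rpl or Rps and a number, together with Rpsa, Rplp0, Rplp1 and Rplp2. Kinases of the Rps6k family and records with -ps in the symbol were left out. This rule took 86 of 55573 gene records. Of these, 43 encode proteins of the large (60S) subunit, 31 proteins of the small (40S) subunit and 3 the P stalk of the large subunit. A further 8 are paralogs of these genes, and Rps19bp1 matches by symbol but encodes a regulator of the deacetylase Sirt1, not a subunit. Fau, which encodes a subunit fused to a ubiquitin-like protein, and Rack1, a 40S scaffold, carry other symbols and are given with the related genes.

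The libraries fell into 4 groups of 4. Parental is the unmodified RAW264.7 line as far as the labels say. In ORP5/8 KD the knockdown is aimed at the lipid transfer proteins ORP5 and ORP8 (genes Osbpl5 and Osbpl8), in ATP11A/C KD at phospholipid flippases, ATP11A among them, and in CDC50A KD at CDC50A (gene Tmem30a), the partner subunit that such flippases need. The library names of the knockdown groups begin with "sh" and those of Parental name no construct, and a library with a non-targeting construct was not analysed here, so the targeted gene and the construct itself cannot be told apart. The labels do not say whether a group is 1 clone or whether its libraries are separate cultures, and each p-value given here therefore rests on variation among 4 libraries a group that may be technical only.

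Each library held between 24020891 and 41543050 counts. Osbpl8 was lower in ORP5/8 KD (log2 fold change -1.77), but also in CDC50A KD (-1.54) and ATP11A/C KD (-1.41). Atp11a was lower by 1.52 on the log2 scale in ATP11A/C KD, but also lower in CDC50A KD (-0.51) and ORP5/8 KD (-0.21). Tmem30a fell by 0.35 in CDC50A KD, from a mean of 162 to 127 CPM, and also fell in ORP5/8 KD (-0.31) and ATP11A/C KD (-0.19), while Osbpl5 was too low to be tested. All 12 macrophage markers passed the low-count filter, and 0 of 21 markers of other cell types did, with group means of at most 0.207 CPM. Of the 12 macrophage markers 2 were higher and 8 lower in CDC50A KD than in Parental, 1 and 10 in ATP11A/C KD, and 2 and 10 in ORP5/8 KD. Their summed level ran from 14213 to 15043 CPM in Parental and from 9125 to 9527 CPM in CDC50A KD. It ran from 8006 to 8353 CPM in ATP11A/C KD and from 9189 to 9661 CPM in ORP5/8 KD. Lyz2 was the largest part of this sum in each group. Its mean was 7207 CPM in Parental, 2859 in CDC50A KD, 2582 in ATP11A/C KD and 4168 in ORP5/8 KD. The part of the summed level in the values of the ribosomal protein genes was not tested.

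A ribosome carries its proteins in fixed proportions, so the genes are usually expressed together and at high levels. Many of their mRNAs begin with a C followed by a run of pyrimidines, the terminal oligopyrimidine (TOP) motif. Through this motif the kinase mTORC1 and the protein LARP1 set how well these mRNAs are translated and how stable they are.

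The bases around the annotated start are shown for the members with the highest and the lowest log2 fold change in CDC50A KD against Parental, because this is where the TOP motif lies. Entries were taken from RefSeq (GRCm38.p6). Of the 86 members 66 had an entry, and the lines shown were not drawn from every chromosome. Of the 8 highest members 5 appear, and of the 8 lowest 7. Each line runs 5′ to 3′ on the strand of the gene, with 15 bases before the start and 15 from it on, and capitals mark runs of at least 5 pyrimidines. The first 5 sequences belong to members with the highest values.
Rps28: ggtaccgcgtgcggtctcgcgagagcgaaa
Rplp2: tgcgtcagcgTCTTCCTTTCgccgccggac
Rpl13: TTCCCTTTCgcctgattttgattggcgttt
Rps26: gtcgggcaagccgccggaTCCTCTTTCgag
Rpl3l: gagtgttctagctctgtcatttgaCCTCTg
Rpl7l1: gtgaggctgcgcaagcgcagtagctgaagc
Rpl26: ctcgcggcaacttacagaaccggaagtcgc
Rpl36al: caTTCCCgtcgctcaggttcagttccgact
Rpl19: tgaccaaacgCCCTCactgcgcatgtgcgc
Rps23: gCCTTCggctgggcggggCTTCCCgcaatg
Rps18: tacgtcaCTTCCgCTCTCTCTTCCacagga
Rps24: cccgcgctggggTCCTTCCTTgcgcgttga
The windows lie at chr17:33824548-33824577 for Rps28, chr7:141447636-141447665 for Rplp2, chr8:123102335-123102364 for Rpl13, chr10:128626492-128626521 for Rps26 and chr17:24727811-24727840 for Rpl3l. Those of the lowest members lie at chr17:46782642-46782671 for Rpl7l1, chr11:68901551-68901580 for Rpl26, chr12:69184053-69184082 for Rpl36al, chr11:98026695-98026724 for Rpl19, chr13:90923107-90923136 for Rps23, chr17:33955651-33955680 for Rps18 and chr14:24490663-24490692 for Rps24. Rplp2, Rpl13 and Rps26, near the top of the order, and Rps18 and Rps24, near its bottom, each show a run of at least 9 pyrimidines within the window. Rps28, the highest of the subunit genes, and Rpl7l1 and Rpl26, the lowest members, show no run of 5.

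Over all annotated starts, a C followed by at least 7 further pyrimidines occurred within 40 bases on either side of the start, on the strand of the gene, at 49 of 78 starts of members (62.8%) and at 23.2% of all 32851 starts. The ETS core CCGGAA, searched on both strands over 300 bases, occurred at 47.4% of the members' starts and at 14.9% of all starts. Both searches may overlap the same bases. The 44 tested members with the pyrimidine run had a median log2 fold change of 0.38 in CDC50A KD against Parental, and the 20 without it had 0.41. In ORP5/8 KD these medians were 0.11 and 0.13, and in ATP11A/C KD 0.19 and 0.19. These medians differ by at most 0.03, and the ranges of members with and without the run overlap in each comparison.

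Of the 86 members, 84 passed the low-count filter. Rpl10l and Rpl39l, paralogs known for their expression in testis, had 0 counts in every library. Per kilobase of coding sequence, high mean levels in Parental were 6376 CPM for Rpl41, 2402 CPM for Rpsa, 1757 CPM for Rplp1 and 1653 CPM for Rps3. The coding sequence of Rpl41, a peptide that bridges the subunits, is only 75 bases long, which raises its value per kilobase. The lowest tested members on this scale were Rpl3l at 0.155 CPM per kilobase, Rps19bp1 at 47.3, Rpl29 at 84.1, Rpl22l1 at 193 and Rps27rt at 250.2. Apart from Rpl29, a 60S protein, these lowest members are paralogs or, in Rps19bp1, no subunit.

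The members held a larger share of all counts in each knockdown group than in Parental. In Parental 1 to 4 the share was 4.11%, 4.58%, 4.36% and 4.21%. ORP5/8 KD 1 to 4 had 4.75%, 5.20%, 5.18% and 5.01%, and ATP11A/C KD 1 to 4 had 5.09%, 5.18%, 4.85% and 4.85%. CDC50A KD 1 to 4 had 5.45%, 5.33%, 5.52% and 5.47%. No knockdown library overlapped Parental, and the CDC50A KD libraries lay above the 12 others. The mean was highest in CDC50A KD, at 5.44% ± 0.0831, followed by 5.04% ± 0.209 for ORP5/8 KD and 4.99% ± 0.165 for ATP11A/C KD, with Parental at 4.31% ± 0.203 (SD, n = 4 each). The share of mitochondrially encoded transcripts was also higher in each knockdown group than in Parental, where it was 1.19% ± 0.0744 (SD, n = 4). It was 1.63% in CDC50A KD, 1.56% in ATP11A/C KD and 1.68% in ORP5/8 KD (means, n = 4 each). Unlike the share of the members, it was highest in ORP5/8 KD. Its part in the result was not tested. A share of counts in bulk RNA cannot tell more transcript of these genes from less of the others.

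**Figure D1:**
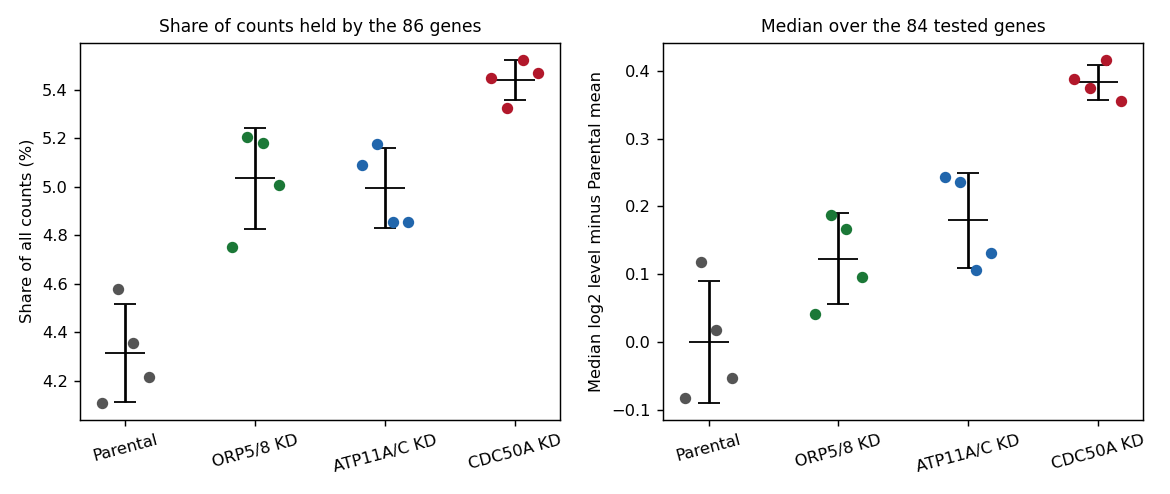
Left, the share of all counts (percent) held by the 86 ribosomal protein genes in each library, and right, the median over the 84 tested genes of the log2 level minus the Parental mean. Points are libraries, and the bar and whiskers are the mean and SD of 4 libraries. The CDC50A KD libraries sit between 5.33% and 5.52%, above the Parental range of 4.11% to 4.58%. On the right, Parental spans -0.08 to 0.12 and overlaps ORP5/8 KD.

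The median level over the members, scaled by the trimmed mean of M values (TMM), separated the groups less clearly than the share. Relative to the Parental mean, this median lay between -0.08 and 0.12 on the log2 scale in Parental, with Parental 2 highest. It lay between 0.04 and 0.19 in ORP5/8 KD, which overlapped Parental. ATP11A/C KD lay between 0.11 and 0.24, with its lowest library below Parental 2, and CDC50A KD between 0.36 and 0.42, above every other library. Levels (CPM) are counts scaled to library size and corrected by TMM, and a gene is called higher or lower at a Benjamini-Hochberg adjusted p under 0.05 in edgeR's quasi-likelihood test across all 13107 tested genes.

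CDC50A KD against Parental gave the most called members of the comparisons with Parental. Of 84 tested members 83 were higher and 0 lower, while 24.3% of all tested genes were higher and 26.1% lower. The median log2 fold change was 0.38 over the members (from 0.11 to 0.97) and -0.01 over all tested genes. Among the 2315 genes with a mean of at least 100 CPM, 43.4% were higher, against 77 of 78 members at that level. All 4 CDC50A KD libraries lay above all 4 Parental libraries for 80 members, and this held for 23.2% of all tested genes. All 31 genes of the 40S subunit and 42 of 43 of the 60S subunit were higher, with medians of 0.37 and 0.40.

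The P stalk, which recruits the elongation factors, stood high in this comparison. Rplp2 measured 249, 317, 258 and 227 CPM in Parental 1 to 4 and 452, 408, 479 and 395 CPM in CDC50A KD 1 to 4. The groups did not overlap, and the log2 fold change was 0.72 ± 0.081 (SE; adjusted p = 3.2e-07). Rplp1 rose by 54.2%, from 601 to 926 CPM (log2 fold change 0.62 ± 0.084). Rplp0, the base of the stalk, ran from 1151 to 1308 CPM in Parental and from 1587 to 1696 CPM in CDC50A KD (log2 fold change 0.43 ± 0.048).

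Among the 40S genes, Rps28, which lies at the exit channel of the mRNA, had the highest value. It measured 124, 168, 144 and 124 CPM in Parental and 254, 225, 254 and 212 CPM in CDC50A KD. The lowest CDC50A KD library lay above the highest Parental library, with a log2 fold change of 0.75 ± 0.094 (adjusted p = 1.3e-06). Rps29, a zinc-binding protein of the 40S head, rose by 59.7% (0.68 ± 0.091), Rps20, also of the head, by 52.3% (0.61 ± 0.055) and Rps26, another protein of the exit channel, by 52.1% (0.61 ± 0.068). The listed genes of mRNA entry and exit were all higher (6 of 6), with a median of 0.47.

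Among the 60S genes, Rpl13 was highest. It measured 549, 639, 506 and 480 CPM in Parental and 1002, 852, 876 and 718 CPM in CDC50A KD, with no overlap but a wide spread within CDC50A KD. The log2 fold change was 0.66 ± 0.101 (adjusted p = 1.5e-05). Rpl28 rose by 49.4% and Rpl41 by 47.2%. Rpl5 and Rpl11, which carry the 5S rRNA and bind Mdm2 when free, were both higher, by 0.34 ± 0.047 each. Rpl4, among the most abundant members by CPM, ran from 1701 to 1845 CPM in Parental and from 2087 to 2194 CPM in CDC50A KD, a smaller change of 0.27 ± 0.038 without overlap.

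The exception was Rpl26, a protein near the exit of the nascent chain that is modified by UFM1. It measured 158, 185, 197 and 183 CPM in Parental and 195, 205, 188 and 205 CPM in CDC50A KD. The groups overlapped, and the log2 fold change of 0.13 ± 0.061 was not called (adjusted p = 0.0744). Of the 8 listed genes of the exit tunnel and exit site the other 7 were higher. The other 7 of the 8 lowest members were called. Rpl7l1 was the lowest of all (0.11 ± 0.036). Above Rpl26 came Rpl36al (0.21 ± 0.055), Rps14 (0.21 ± 0.050), Rpl19 (0.23 ± 0.049), Rps23 (0.24 ± 0.054), Rps18 (0.24 ± 0.062) and Rps24 (0.24 ± 0.053). For Rps14, Rps18, Rpl36 and Rpl26 at least 1 CDC50A KD library lay within the Parental range.

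**Figure D2:**
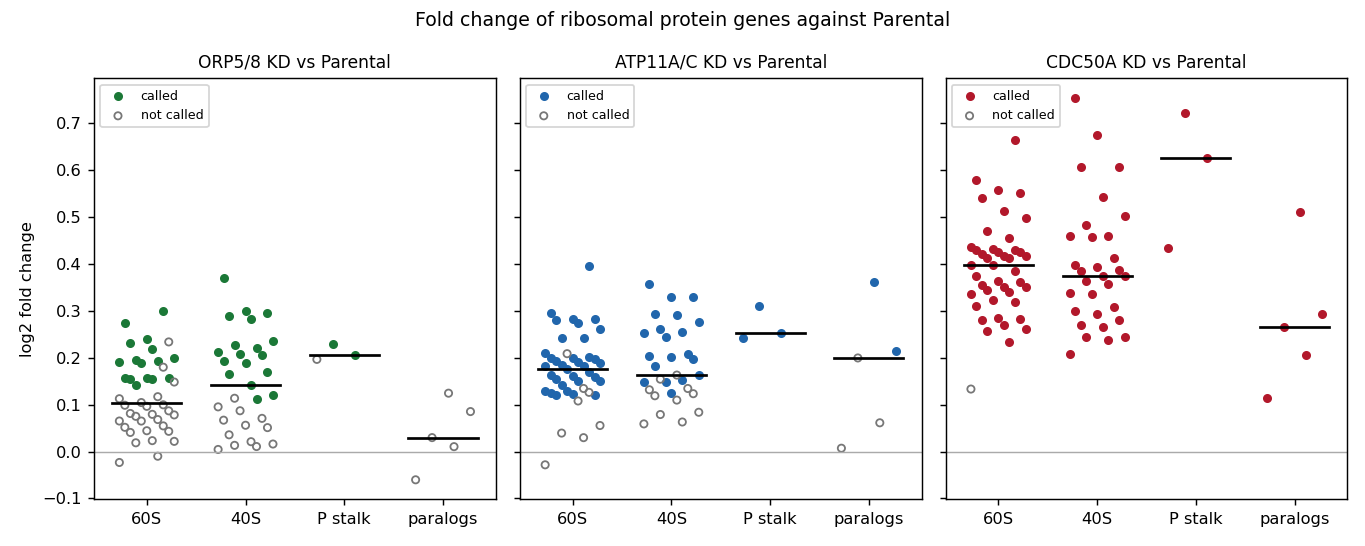
Log2 fold change against Parental (vertical axis) of the tested ribosomal protein genes in the 3 knockdown groups, split into 60S, 40S, P stalk and paralogs. Filled points passed an adjusted p of 0.05, open points did not, and black lines are medians. Rpl3l (0.97 in CDC50A KD) and Rps19bp1 are not drawn. In CDC50A KD 1 subunit gene, Rpl26, is open, whereas in ORP5/8 KD 27 of 43 genes of the 60S subunit are open.

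In ATP11A/C KD against Parental, 60 of 84 members were higher and 0 lower, while 17.4% of all tested genes were higher and 20.2% lower. The median was 0.18 over the members and 0.01 over all tested genes. The count fell to 39 without Parental 4. At 100 CPM or more, 57 of 78 members and 24.6% of genes were higher. All ATP11A/C KD libraries lay above all Parental libraries for 29 members, and this held for 14.3% of all tested genes. The 60S subunit had 35 of 43 genes higher (median 0.18), the 40S subunit 20 of 31 (median 0.16) and the P stalk 3 of 3 (median 0.25).

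Rpl41 had the largest called value. It measured 454, 525, 467 and 466 CPM in Parental 1 to 4 and 716, 635, 576 and 589 CPM in ATP11A/C KD 1 to 4. The groups did not overlap, and the log2 fold change was 0.40 ± 0.083 (adjusted p = 0.00071). Rps2, at the mRNA entry site, rose by 28.1% (0.36 ± 0.062), Rps20 by 25.7% (0.33 ± 0.055) and Rps26 by 25.6% (0.33 ± 0.067). Rplp2 rose by 24.1% (0.31 ± 0.081), although its libraries overlapped Parental, and Rpl22, an RNA-binding 60S protein, by 22.6% (0.29 ± 0.056).

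At the low end of ATP11A/C KD, Rpl26 had -0.03 ± 0.061, Rpl7l1 0.01 ± 0.036, Rpl36 0.03 ± 0.085, Rpl35a 0.04 ± 0.079, Rpl19 0.06 ± 0.049, Rps10 0.06 ± 0.069, Rpl36al 0.06 ± 0.055 and Rps24 0.06 ± 0.053. None of these 8 was called and all overlapped Parental. Rpl26 measured between 170 and 188 CPM in ATP11A/C KD.

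In ORP5/8 KD against Parental, 37 of 84 members were higher and 0 lower, while 22% of all tested genes were higher and 24.3% lower. The median was 0.12 over the members and 0.02 over all tested genes. With upper-quartile scaling in place of TMM the count of higher members was 61. At 100 CPM or more, 35 of 78 members and 20.3% of genes were higher. All ORP5/8 KD libraries lay above all Parental libraries for 21 members, a share of 25% against 20.5% of all tested genes. The 40S subunit had 18 of 31 genes higher (median 0.14), the 60S subunit 16 of 43 (median 0.10) and the P stalk 2 of 3.

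Rps7, a 40S protein that can bind Mdm2, had the highest value of the subunit genes. It measured 476, 577, 546 and 510 CPM in Parental and 654, 699, 669 and 699 CPM in ORP5/8 KD. The groups did not overlap, with a log2 fold change of 0.37 ± 0.055 (adjusted p = 1.2e-05). Rpl10a, the protein of the L1 stalk where spent tRNA leaves, ran from 542 to 584 CPM in Parental and from 634 to 726 CPM in ORP5/8 KD (0.30 ± 0.045). Rps9, a 40S protein, rose by 22.1% (0.29 ± 0.052) and Rpl13a, also a part of the GAIT complex of macrophages, by 21.0% (0.27 ± 0.052). Rps29 (0.30 ± 0.090) and Rps26 (0.28 ± 0.067) were called with libraries that overlapped Parental.

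The low end of ORP5/8 KD included Rps28, the highest subunit gene of CDC50A KD. It measured 118, 155, 142 and 146 CPM in ORP5/8 KD, with 3 of these 4 libraries within its Parental range, and had 0.0044 ± 0.094. Rpl7l1 had -0.06 ± 0.036, Rpl27 -0.02 ± 0.054, Rpl39, which lines the exit tunnel, -0.01 ± 0.083, Rps19bp1 0.01 ± 0.091, Rpl36al 0.01 ± 0.055, Rps24 0.01 ± 0.053 and Rps10 0.01 ± 0.069. None of these 8 was called.

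**Figure D3:**
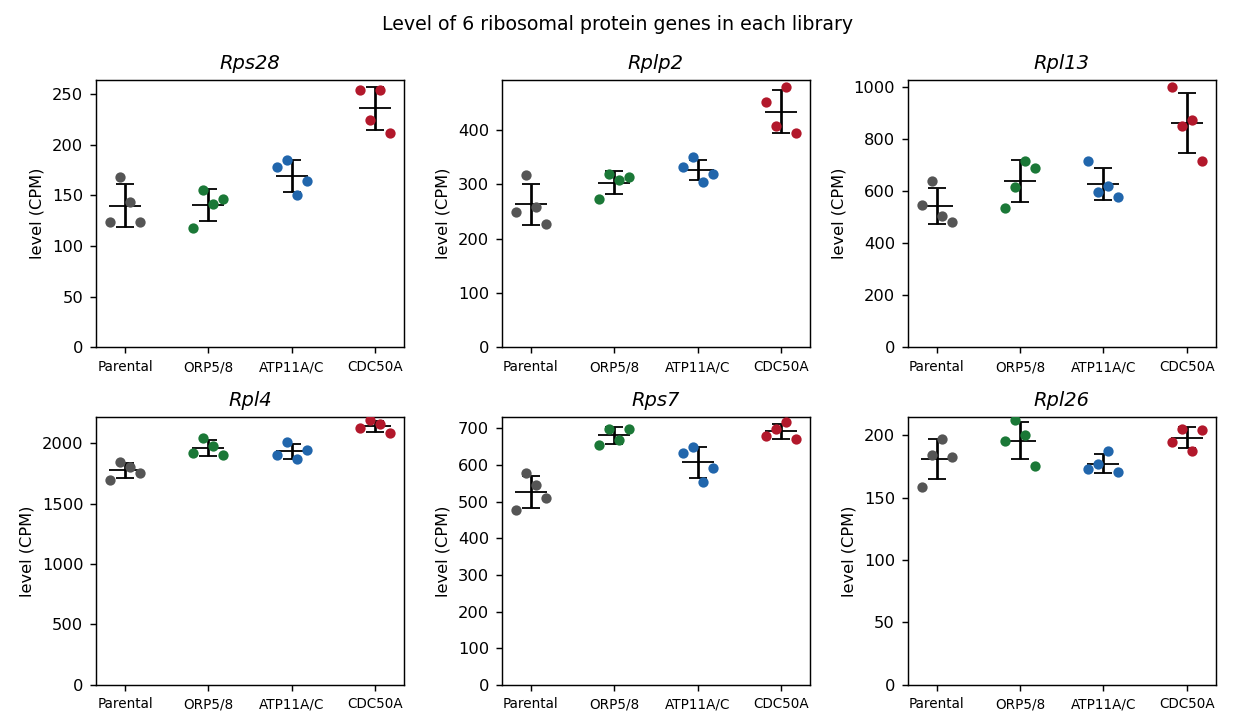
Level in CPM (vertical axis, from 0) of 6 ribosomal protein genes in each library of the 4 groups, with the mean and SD of 4 libraries. Rps28, Rplp2 and Rpl13 are higher in every CDC50A KD library than in any Parental library. Rps7 is higher in all ORP5/8 KD libraries (654 to 699 CPM) than in Parental, and Rpl26 overlaps throughout.

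The knockdown groups were also compared with each other. Against ATP11A/C KD, CDC50A KD had 68 of 84 members higher and 0 lower, with a median of 0.20. Of all tested genes 13.5% were higher and 12.7% lower. Over the 2315 genes with at least 100 CPM the median was 0.08. The count of higher members was 45 without ATP11A/C KD 3. The highest values were Rps28 (0.48 ± 0.094), Rpl13 (0.46 ± 0.101), Rps29 (0.41 ± 0.090) and Rplp2 (0.41 ± 0.081). The lowest were Rps27l (-0.10 ± 0.069), Rpl22 (0.08 ± 0.056), Rps27rt (0.08 ± 0.050) and Rps18 (0.09 ± 0.062), none of them called.

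Against ORP5/8 KD, CDC50A KD had 79 of 84 members higher and 0 lower, with a median of 0.25. Of all tested genes 29.4% were higher and 27.5% lower. Over the 2315 genes with at least 100 CPM the median was 0.15. Among coding genes at that level that are no members, 69.6% were higher with transcripts under 600 bases. With transcripts of 2000 bases or more, 51.1% of them were. The count of higher members was 61 with upper-quartile scaling and 71 without ORP5/8 KD 1. The highest were Rps28 (0.75 ± 0.094), Rpl38 (0.53 ± 0.079), Rplp2 (0.52 ± 0.081) and Rps20 (0.44 ± 0.055). Rps7 had 0.02 ± 0.055 (adjusted p = 0.73), Rpl26 0.02 ± 0.061, Rps9 0.07 ± 0.052 and Rpl3l -0.52 ± 0.304, none of them called. Rps7 measured 672 to 718 CPM in CDC50A KD, a range that includes 2 of the 4 ORP5/8 KD libraries.

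ATP11A/C KD and ORP5/8 KD differed at few members. Of 84 members 7 were higher in ATP11A/C KD and 1 lower, below the background of 20.4% higher and 18.2% lower. The median was 0.06 over the members and also 0.06 over the 2315 genes with at least 100 CPM. With upper-quartile scaling 1 member was higher and 3 were lower, and without ORP5/8 KD 1 the counts were 1 and 2. Rps27l was highest, at 71.9, 79.8, 79.1 and 71.0 CPM in ORP5/8 KD 1 to 4 and 89.5, 108, 88.6 and 93.8 CPM in ATP11A/C KD 1 to 4. These did not overlap (0.33 ± 0.069, adjusted p = 0.00059). Rps28 (0.27 ± 0.094), Rpl38 (0.22 ± 0.079) and Rpl41 (0.22 ± 0.083) followed, each with overlapping libraries. Rps7 was the member that was lower (-0.17 ± 0.055), and Rpl3l (-0.72 ± 0.304), Rpl26 (-0.15 ± 0.061) and Rps9 (-0.08 ± 0.052) were not called.

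The paralogs differed from one another. Rps27l, a gene induced by p53, was higher in ATP11A/C KD (0.36 ± 0.069) and CDC50A KD (0.27 ± 0.069) and had 0.03 in ORP5/8 KD, where it was not called. Its namesake Rps27 had 0.16, 0.34 and 0.07 in the same order and was called in CDC50A KD, with an adjusted p of 0.0503 in ATP11A/C KD. Rps27rt, a near copy of Rps27, had 0.21, 0.29 and 0.09, and reads of these close copies may have been split between the records. Rpl22l1 rose from 70.8 to 101 CPM in CDC50A KD (0.51), where its namesake Rpl22 rose by 0.37, and it was not called in the other groups. Rpl7l1, a nucleolar relative of Rpl7, had 0.11 in CDC50A KD, 0.01 in ATP11A/C KD and -0.06 in ORP5/8 KD, while Rpl7 had 0.28, 0.12 and 0.16 and was called in each. Rpl36al had 0.21 in CDC50A KD, against 0.42 for Rpl36a.

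Rpl3l, known as the striated-muscle relative of Rpl3, was close to the detection limit. It had 4, 9, 4 and 8 counts in the Parental libraries and 22, 31, 18 and 16 in ORP5/8 KD, which did not overlap (1.49 ± 0.341, adjusted p = 0.0011). In CDC50A KD it had 10 to 15 counts (0.97 ± 0.367) and in ATP11A/C KD 7 to 16 (0.78 ± 0.368, not called). Its mean level stayed at or below 0.543 CPM, whereas Rpl3 had 898 CPM in Parental. Rpl3 was higher in all 3 groups, by 0.36 in CDC50A KD, 0.19 in ATP11A/C KD and 0.24 in ORP5/8 KD.

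Ribosomal protein genes have many processed copies, so reads may be divided between a gene and its copies. The 303 records named as -ps copies of members held 0.632% of counts in CDC50A KD, 0.598% in ATP11A/C KD and 0.619% in ORP5/8 KD, beside 0.516% in Parental, and thus lay higher in the knockdown groups as the members did. The copies held 70.2% of the joint counts of Rps2 and its copies and 47.7% of those of Rpl3, so the values of both genes are uncertain to that degree. When the counts of copies were added to their parent, the number of higher members was 83 in CDC50A KD, 62 in ATP11A/C KD and 37 in ORP5/8 KD.

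Short mRNAs of other genes moved in the same direction. In CDC50A KD against Parental the 132 tested coding genes with transcripts under 600 bases that are no members had a median of 0.23, those from 600 to below 1000 bases 0.13, those from 1000 to below 2000 bases 0.03 and longer ones -0.04. The members had 0.36 (28 genes), 0.38 (35 genes) and 0.43 (17 genes) in the first 3 of these classes, and 0.32 in the longest, which holds only 4 of them. In ATP11A/C KD the shortest other genes had 0.14 and the shortest members 0.18, and in ORP5/8 KD 0.06 and 0.09. Among the 23 other genes under 600 bases with at least 100 CPM, the medians were 0.27 in CDC50A KD, 0.12 in ATP11A/C KD and 0.09 in ORP5/8 KD. Of these genes 69.6%, 39.1% and 26.1% were higher, beside 27, 17 and 5 of the 28 shortest members. From 600 to below 1000 bases, 17 of 35 members were higher in ORP5/8 KD, beside 23.5% of other genes with at least 100 CPM. From 1000 to below 2000 bases, 14 of 17 members were higher there, beside 19.9%. The part of transcript length in the members' values was not tested.

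**Figure D4:**
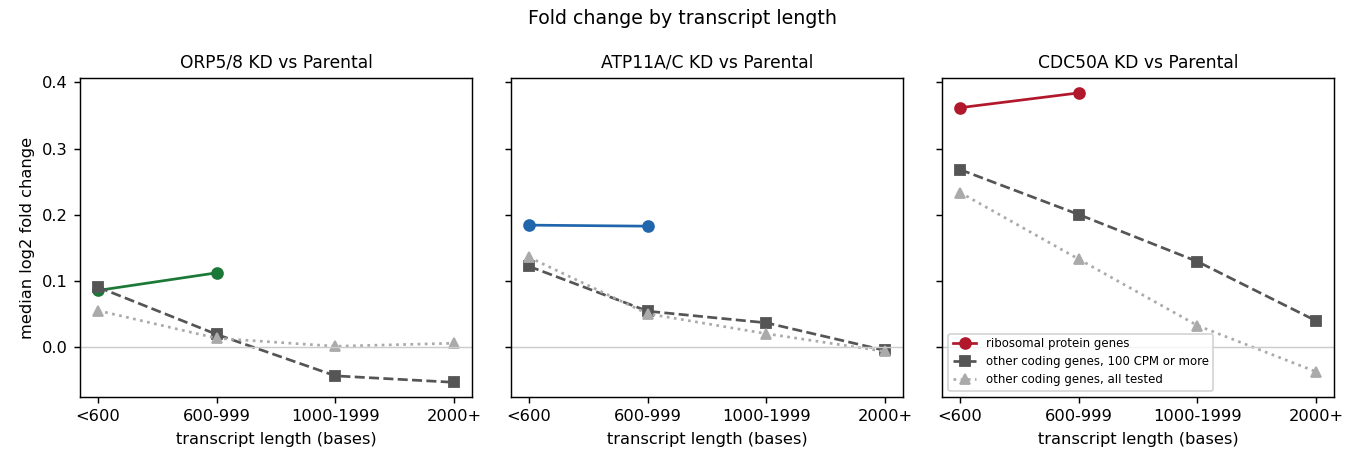
Median log2 fold change against Parental (vertical axis) by class of transcript length (bases) for ribosomal protein genes, drawn for the classes with at least 20 of them, and for other coding genes. In CDC50A KD the other genes run from 0.23 in the shortest class to -0.04 in the longest, and the ribosomal protein genes lie above them at 0.36 and 0.38.

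Genes that work with the ribosomal proteins were counted in the same fits. Their counts stand beside the shares of all tested genes given above. These were 24.3% higher and 26.1% lower in CDC50A KD, 17.4% and 20.2% in ATP11A/C KD, and 22% and 24.3% in ORP5/8 KD. Among genes with at least 100 CPM, 43.4%, 24.6% and 20.3% were higher in the same order of groups. The listed TOP mRNAs and many of the initiation factors lie at that level. The 19 listed TOP mRNAs that are no members encode elongation and initiation factors, Rack1, Tpt1, Pabpc1 and others. Of these, 19 were higher in CDC50A KD, 11 in ATP11A/C KD and 10 in ORP5/8 KD, with 0 lower in each and medians of 0.29, 0.14 and 0.12. With upper-quartile scaling the counts were 17 in ATP11A/C KD and 16 in ORP5/8 KD. Tpt1, the translationally controlled tumour protein, rose by 0.51, 0.21 and 0.31 in the 3 groups, and Pabpc1, the poly(A)-binding protein, by 0.43, 0.22 and 0.23. Eef1a1, the main elongation factor, had a mean of 12066 CPM in Parental and rose by 0.29 in CDC50A KD. Fau rose by 0.37 in CDC50A KD and 0.20 in ATP11A/C KD.

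The host genes of small nucleolar RNAs, many of which are known for spliced transcripts that do not encode a stable protein, went the other way in CDC50A KD. Several are described as TOP transcripts. The pyrimidine run occurred at 1 of 13 annotated starts of these hosts (7.69%), against 62.8% for the members and 23.2% for all starts. It was found at only 46.2% of the annotated starts of the listed TOP mRNAs that are no members. The search therefore misses many TOP mRNAs and cannot tell whether the hosts are TOP transcripts. Of 11 tested hosts 0 were higher and 10 lower, with a median of -0.72, beside 26.1% of all tested genes lower. Zfas1 fell by 0.93 ± 0.128, Snhg20 by 1.13 ± 0.180, Snhg12 by 0.97 ± 0.166 and Snhg1 by 0.95 ± 0.168. Zfas1 had a mean of 19.0 CPM ± 2.53 in Parental and 9.88 CPM ± 1.67 in CDC50A KD (SD, n = 4 each). In ORP5/8 KD 2 hosts were higher (Snhg8 by 0.70 and Snhg17 by 0.27) and in ATP11A/C KD 1 (Snhg8 by 0.29), with 0 lower in both. These counts lie below the 22% and 17.4% of all tested genes that were higher, and they are unstable. Without ORP5/8 KD 2 the first was 5, and without any 1 of Parental 1, 2 or 4 or ORP5/8 KD 1 or 4 it was 1. The second was 3 without ATP11A/C KD 1, 0 without any 1 of Parental 1, 2 or 4 or ATP11A/C KD 2 or 3, and 0 with the replicate number as a block. In the direct comparisons CDC50A KD had 11 of 11 hosts lower than either other knockdown group. Among the members, Rpl13a, Rpl3 and Rpl4 also carry small nucleolar RNAs in their introns, and they were higher in CDC50A KD. Coding genes that host such RNAs were not counted as a list, so these members do not show how coding hosts moved.

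Of 42 tested ribosome biogenesis genes, 30 were higher and 2 lower in CDC50A KD, 16 and 2 in ATP11A/C KD and 7 and 5 in ORP5/8 KD, with medians of 0.18, 0.11 and 0.02. Both shares of ORP5/8 KD lie below those of all tested genes. There the 5 lower genes became 2 without any 1 of Parental 2 or ORP5/8 KD 3 or 4, 3 without any 1 of Parental 1 or 3 or ORP5/8 KD 2, and 8 without Parental 4, and upper-quartile scaling gave 17 higher and 1 lower. Gar1 and Nhp2, proteins of the box H/ACA particles, rose by 0.52 and 0.40 in CDC50A KD, and Grwd1, a chaperone of the protein of Rpl3, by 0.38. Of 33 translation initiation factors, 20 were higher and 1 lower in CDC50A KD, 6 and 3 in ATP11A/C KD and 4 and 10 in ORP5/8 KD. Without Parental 3 the higher counts were 3 in ATP11A/C KD and 2 in ORP5/8 KD, and without ATP11A/C KD 2 the lower count of that group was 5. Upper-quartile scaling gave 7 higher and 6 lower in ORP5/8 KD. Eif1a fell by 0.43 in ORP5/8 KD, Eif5a rose by 0.34 in CDC50A KD, and Eif4a2, a helicase, fell by 0.83 there.

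Regulators of ribosomal protein mRNAs did not share 1 direction. Of 22 genes of mTORC1, LARP1 and Myc regulation, 7 were higher and 5 lower in CDC50A KD, 4 and 3 in ATP11A/C KD and 8 and 4 in ORP5/8 KD. Without ATP11A/C KD 2 the higher count of that group was 10. The counts in CDC50A KD and ATP11A/C KD lie near the shares of all tested genes given above. Pdcd4, an inhibitor of the helicase Eif4a, rose by 1.43 in ORP5/8 KD and Deptor, an inhibitor of mTOR, by 1.12. Eef2k, the kinase that restrains elongation, fell by 0.39 in ATP11A/C KD and by 0.66 in CDC50A KD, and Maf1, a repressor of RNA polymerase III, rose by 0.26 and 0.40. Of 15 genes listed for ribosome quality control, 5 were higher and 4 lower in CDC50A KD, 5 and 2 in ATP11A/C KD and 3 and 5 in ORP5/8 KD. These counts differ by only a few genes from what the shares of all tested genes would give. The lower count of ORP5/8 KD was 3 without Parental 3 or without ORP5/8 KD 3, and upper-quartile scaling gave 6 higher and 2 lower. Pelo, which rescues stalled ribosomes, rose by 0.80 in CDC50A KD and 0.59 in ATP11A/C KD, while Znfx1 fell by 0.79 in CDC50A KD, 0.81 in ATP11A/C KD and 1.25 in ORP5/8 KD. Znfx1 is known as an interferon-induced RNA sensor and is no established factor of this pathway, although the list holds it.

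**Figure D5:**
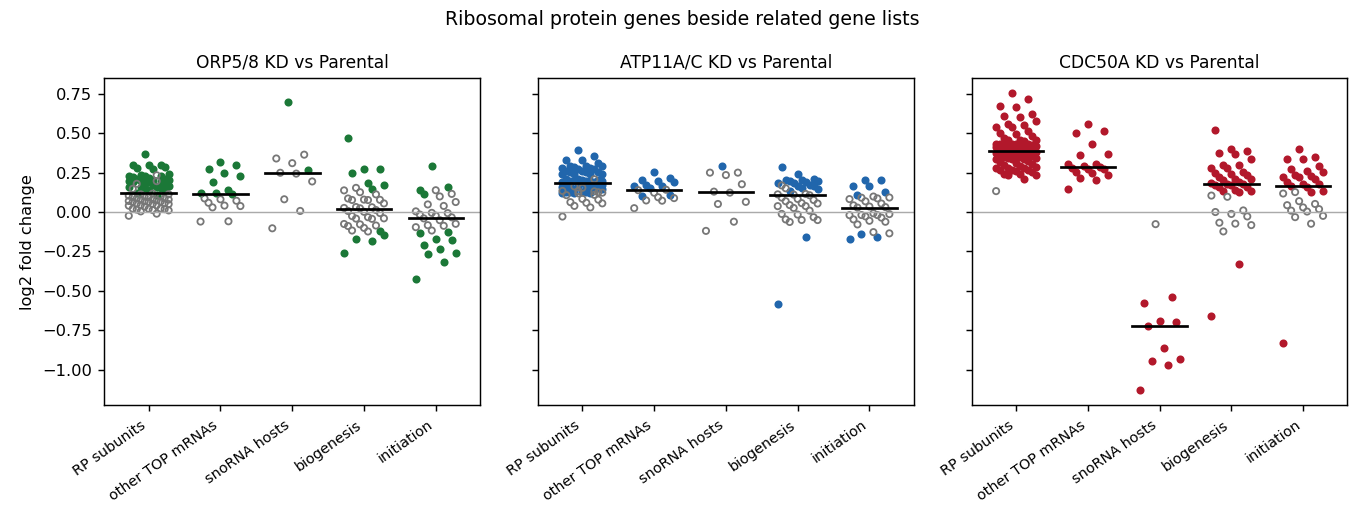
Log2 fold change against Parental (vertical axis) of the ribosomal protein subunit genes, other TOP mRNAs, hosts of small nucleolar RNAs, ribosome biogenesis genes and initiation factors. Filled points passed an adjusted p of 0.05, open points did not, and black lines are medians. In CDC50A KD the hosts lie at a median of -0.72 while the other TOP mRNAs lie at 0.29.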

How the data were processed

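RNA was sequenced from 16 RAW264.7 libraries. The authors deposited expected counts for each gene, made with RSEM, and 4.63% of the values have decimals. The submitters' processing notes name STAR 2.7.5a, Trim Galore 0.5.0, Picard and the build mm10. They were rounded to whole counts here. The 92 spike-in records held 0 counts. Totals per library set the precision of each level.

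One edgeR 4.0.16 quasi-likelihood fit (R 4.3.3) covered all 16 libraries, with TMM scaling, filterByExpr at a minimum count of 10, and Benjamini-Hochberg adjustment over 13107 genes in each of 6 comparisons. Standard errors are the log2 fold change over the root of F. The fit was tested on simulated data. Gene lengths and coding lengths are from GENCODE M21 (GRCm38), in which all 86 members matched. For each gene 1 transcript was taken, and coding length was used for levels per length.

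Members and gene lists were chosen with earlier results of these data known. Named members are the 8 highest and 8 lowest in each comparison with Parental, the 4 highest and 4 lowest between knockdowns, all paralogs with namesakes, and the extremes of level per length. From related lists up to 4 called genes with the smallest adjusted p were open to naming, and Rplp0, Rpl4, Rpl5, Rpl11, Rpl28 and Rpl41 were added with their values known. Alternatives were other scalings, other filters, DESeq2 1.42.0, a replicate block, added pseudogene records, a stricter threshold and leaving out each library. Values of a few genes are not reported here.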

Additional observations from a re-analysis of the deposited data

Results flagged for a closer look

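Among 156 groups of 4 libraries, 6 held a library far from the other 3. The values examined were the levels of named members and the share and median level of all members. Chance flags about 1 in 20 groups. Rpl19 measured 902 CPM in CDC50A KD 2, below the 980 to 990 CPM of the other CDC50A KD libraries, and 868 CPM in Parental 2, above the 803 to 808 CPM of the others. Rps9 measured 808 CPM in Parental 2, above 740 to 746 CPM. Rpl27 measured 423 CPM in CDC50A KD 4, below 460 to 461 CPM. Rpl36a measured 181 CPM in ORP5/8 KD 2, above 157 to 159 CPM. Rpl41 measured 435 CPM in ORP5/8 KD 1, below 570 to 582 CPM.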

How the results depend on the processing

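In CDC50A KD against Parental, 80 to 83 members were higher when each library was left out, and the median stayed between 0.36 and 0.44. In ATP11A/C KD the count ran from 39 (without Parental 4) to 72 (without Parental 2), and in ORP5/8 KD from 26 to 51. It ran from 45 to 67 in CDC50A KD against ATP11A/C KD, and in ATP11A/C KD against ORP5/8 KD from 1 to 9 higher and 0 to 2 lower. Hosts of small nucleolar RNAs that were higher numbered 1 to 5 in ORP5/8 KD and 0 to 3 in ATP11A/C KD. The cause of these shifts was not tested.

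With upper-quartile scaling, 61 members were higher in ORP5/8 KD. Other TOP mRNAs that were higher numbered 16 in ORP5/8 KD and 17 in ATP11A/C KD, and hosts that were higher 4 in ORP5/8 KD. Between ATP11A/C KD and ORP5/8 KD 1 member was higher and 3 were lower. For CDC50A KD against ORP5/8 KD 61 members were higher and the median was 0.18. Uncalled values changed sign: Rpl7l1 0.013, Rpl27 0.051 and Rpl39 0.063 in ORP5/8 KD, and Rpl26 -0.052 and Rps7 -0.044 in CDC50A KD against ORP5/8 KD. With no filter on low counts, hosts that were higher numbered 4 in ORP5/8 KD and 2 in ATP11A/C KD, and 2 members were lower in ATP11A/C KD than in ORP5/8 KD. That last count was also 2 with at least 1 CPM in 4 libraries and with pseudogene records added. At 1 CPM Rpl7l1 had -0.000504 in ATP11A/C KD and Rpl26 -0.00566 in CDC50A KD against ORP5/8 KD. Shares with pseudogene records were 6.07% in CDC50A KD, 5.59% in ATP11A/C KD, 5.66% in ORP5/8 KD and 4.83% in Parental. At an adjusted p under 0.01 the counts of higher members were 31 in ATP11A/C KD, 23 in ORP5/8 KD and 43 in CDC50A KD against ATP11A/C KD, with 1 higher and 0 lower in ATP11A/C KD against ORP5/8 KD. The stricter threshold lowers them by construction.

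Leaving out libraries also changed the sign of uncalled values. In ORP5/8 KD the ranges were -0.065 to 0.045 for Rpl27, -0.072 to 0.084 for Rpl39, -0.051 to 0.12 for Rps28, -0.051 to 0.088 for Rps19bp1, -0.020 to 0.085 for Rpl36al, -0.014 to 0.052 for Rps24, -0.038 to 0.097 for Rps10 and -0.012 to 0.099 for Rps27l. In ATP11A/C KD they were -0.072 to 0.015 for Rpl26, -0.037 to 0.15 for Rpl36, -0.028 to 0.11 for Rpl35a and -0.0039 to 0.14 for Rps10. In CDC50A KD against ORP5/8 KD they were -0.032 to 0.052 for Rpl26 and -0.0053 to 0.037 for Rps7.

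Whether replicate numbers pair the libraries was left unsettled by their correlations. Same-numbered libraries correlated between -0.166 and 0.105 over 24 pairs, 2 of them above 0.1. Libraries of different number correlated between -0.140 and 0.141. Of 16 libraries 8 correlated best with their own number, which is more than an even spread over the numbers would give. With the replicate block, 83 members were higher in CDC50A KD, 66 in ATP11A/C KD and 37 in ORP5/8 KD, and 0 hosts were higher in ATP11A/C KD. A biological coefficient of variation of 6.86% limits what small differences could be called.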
